A study of Mus musculus with 8 samples.

Results

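Conjugation enzymes attach glutathione, glucuronic acid or sulfate to drugs, steroids, lipids and oxidised molecules, and the genes that encode them were followed here in glomeruli that lack the tetraspanin CD151. Members were all rows of the array whose gene symbol begins with Gst followed by a, m, p, t, o, k or z, or with Mgst, Ugt or Sult followed by a digit. The rule found 42 genes, measured by 61 probes, among the 18120 genes and 25697 probes of the array. They comprise 19 cytosolic and kappa glutathione S-transferases, 3 microsomal glutathione S-transferases, 10 genes named as UDP-glucuronosyltransferases and 10 sulfotransferases. The rule itself uses no measured value.

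The 8 arrays hold glomerular RNA of 4 Cd151+/+ and 4 Cd151-/- mice, 1 mouse per array. All were FVB/N males of 3 weeks of age, and no other allele, drug or treatment was given in the labels for either genotype. The Cd151-/- mice carry a homozygous deletion of Cd151, a membrane protein that associates with laminin-binding integrins, and the deletion is not restricted to the glomerulus. Glomeruli were collected on a magnet after perfusion with beads and collagenase digestion of the kidney, which can carry fragments of tubule along. The paper states that each isolate was washed until it reached a set minimum purity of glomeruli.

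The glomerulus is the filter of the kidney and is made of podocytes, endothelium and mesangium, whereas the proximal tubule beside it takes up and secretes organic anions and is the part of the nephron best known for conjugation. Glutathione S-transferases join glutathione to electrophiles, UDP-glucuronosyltransferases transfer glucuronic acid from UDP-glucuronic acid, and sulfotransferases transfer sulfate from the activated donor PAPS. Conjugates then leave the cell through pumps of the ABCC family. Many glutathione S-transferase genes are induced by the factor NRF2 through antioxidant response elements, and HNF4 drives many genes of the proximal tubule.

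Values are normalised log2 signals, so that a difference of 1 is a doubling, and fold changes are Cd151-/- minus Cd151+/+. Signals of different probes are not comparable in level. A probe was called detected on an array when its deposited detection p-value was 0.05 or lower, and a gene was tested when any array detected one of its probes and was then represented by its brightest tested probe. As a check of the labels, none of the 4 Cd151-/- arrays detected any of the 3 Cd151 probes, of which ILMN_2836710 was at least 523-fold lower (limma, adjusted p = 6.51e-10). The arrays fell into a set of higher background (Cd151+/+ mice 3 and 4, Cd151-/- mice 1 and 2) and one of lower background (Cd151+/+ mice 1 and 2, Cd151-/- mice 3 and 4), with median deposited signals between 65.7 and 164. Each set holds both genotypes, so each difference can also be given within a set. The podocyte marker Ptpro, a receptor tyrosine phosphatase, was detected in all mice with signals of 12.66 to 13.69, and of the 9 leukocyte markers 4 were detected on all 8 arrays, while Ptprc and Adgre1 were detected on none.

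Of the 42 genes, 31 were detected on at least 1 array and 21 on all 8, the latter 67.7% of the tested members beside 66% of all tested genes. The other 11 were detected on none, namely Gsta1, Gstm3, Mgst2, Sult1c1, Sult1e1, Sult3a1, Sult4a1, Sult5a1, Ugt2a1, Ugt2a2 and Ugt2b5. They include the oestrogen sulfotransferase Sult1e1 and the brain sulfotransferase Sult4a1. Of the 31 tested genes, 6 were detected on part of the arrays in both genotypes. The last 4, Sult1b1, Sult2b1, Ugt2a3 and Ugt2b36, were detected on 1 Cd151-/- array and on no Cd151+/+ array. These 4 entered the test only through a Cd151-/- array and all had a higher mean there, so counts of higher and lower means are given over the 27 genes detected in both genotypes.

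Upstream sequence is shown for 4 members, from 250 bases before to 50 bases after the annotated start in RefSeq on GRCm38.p6, on the strand of the gene. All 42 genes were matched to RefSeq, 41 by symbol and 1 (Ugt8, now Ugt8a) by an older name, and 39 had such a sequence. Gsta3 (chr1:21240335-21240634, plus strand), Gstm5 (chr3:107895604-107895903, plus strand) and Mgst1 (chr6:138140277-138140576, plus strand) are the members that hold the motif searched, and Gsto2 (chr19:47865295-47865594, plus strand) is the member of lowest p. For Mgst1 and Gsto2 this is the first of 2 listed starts. Capitals mark TGACNNNGC on either strand, the core of the antioxidant response element.
Gsta3: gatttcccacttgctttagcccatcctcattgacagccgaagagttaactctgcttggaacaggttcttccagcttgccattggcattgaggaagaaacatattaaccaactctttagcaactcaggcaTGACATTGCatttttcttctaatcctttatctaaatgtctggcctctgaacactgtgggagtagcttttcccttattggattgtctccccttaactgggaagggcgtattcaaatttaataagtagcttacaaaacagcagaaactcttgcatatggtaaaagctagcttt
Gstm5: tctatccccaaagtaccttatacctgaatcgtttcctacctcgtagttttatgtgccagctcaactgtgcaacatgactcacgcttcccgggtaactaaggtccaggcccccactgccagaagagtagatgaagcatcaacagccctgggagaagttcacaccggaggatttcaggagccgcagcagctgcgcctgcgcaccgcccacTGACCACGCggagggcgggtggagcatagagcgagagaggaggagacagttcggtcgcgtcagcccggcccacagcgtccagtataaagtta
Mgst1: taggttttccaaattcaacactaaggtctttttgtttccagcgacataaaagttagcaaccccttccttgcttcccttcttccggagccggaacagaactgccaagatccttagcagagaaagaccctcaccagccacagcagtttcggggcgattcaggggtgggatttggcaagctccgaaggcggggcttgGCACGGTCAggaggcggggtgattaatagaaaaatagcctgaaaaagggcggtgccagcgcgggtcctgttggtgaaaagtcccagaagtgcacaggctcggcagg
Gsto2: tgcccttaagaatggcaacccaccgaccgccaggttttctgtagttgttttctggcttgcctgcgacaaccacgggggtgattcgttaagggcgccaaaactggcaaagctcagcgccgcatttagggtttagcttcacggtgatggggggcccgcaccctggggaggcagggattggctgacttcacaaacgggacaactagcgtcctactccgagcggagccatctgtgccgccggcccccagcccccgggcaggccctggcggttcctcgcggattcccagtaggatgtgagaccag

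TGACNNNGC was found on either strand in 3 of the 39 members, or 7.69%, beside 14.0% of all 27025 genes with such a sequence. Of these 3, Gsta3 and Gstm5 had a higher and Mgst1 a lower mean in Cd151-/-. A match is a run of letters and not a measured binding site.

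The first question was whether any conjugation enzyme differed between genotypes in the glomerulus. None of the 31 tested genes passed Benjamini-Hochberg adjustment in limma, with adjusted p-values of 0.918 or more, beside 3 of 11240 genes, or 0.0267%, over the whole array. At an unadjusted p of 0.05 the test picked 1 member higher in Cd151-/-, the phenol glucuronosyltransferase Ugt1a6a, where 1.9% of all genes were picked in that direction. It picked 1 member lower, the omega-class transferase Gsto2, where 2.47% of all genes were picked. No member had every Cd151-/- value above every Cd151+/+ value, which 0.925% of all genes did, and none had every value below, which 1.34% did. These shares stand near the background and do not set the family apart.

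By size alone, 9 of the 31 genes, or 29%, had a log2 fold change of 0.5 or more, beside 7.79% of all genes, and 2, or 6.45%, had one of -0.5 or less, beside 5.52%. Over the 27 genes detected in both genotypes, means were higher in Cd151-/- for 20 and lower for 7, and the median log2 fold change was 0.21. Over all 31 tested genes 24, or 77.4%, were higher, beside 49.7% of all tested genes, whose median was -0.0018, but the 4 genes that only Cd151-/- arrays detected are among the 24. Over the 21 genes detected on all 8 arrays, which no genotype helped to choose, 15 were higher and the median was 0.18. Without Cd151-/- mouse 4, 12 of those 21 were higher and the median was 0.11, and without Cd151+/+ mouse 2 it was 0.077. Within the higher-background arrays the median of the 27 genes was -0.06, and within the lower-background arrays 0.47. The sets of arrays thus gave different medians, and the larger one came from the set that holds Cd151-/- mouse 4.

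**Figure D1:**
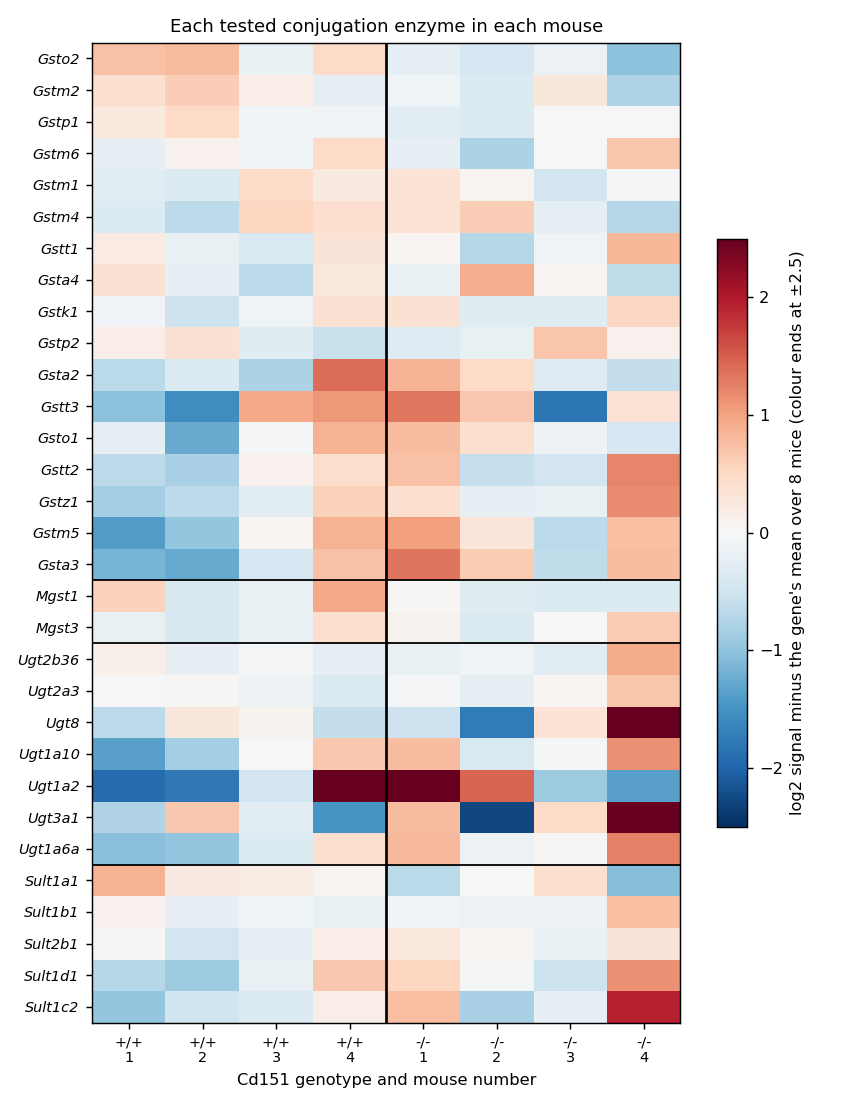
Normalised log2 signal of the 31 tested conjugation enzyme genes (rows, grouped as cytosolic and kappa transferases, microsomal transferases, UDP-glucuronosyltransferases and sulfotransferases) in the 8 mice (columns), each minus the mean of its gene over the 8 mice. Cd151-/- mouse 4, the last column, is the highest mouse in 16 of the 31 rows. These include Sult1b1, Sult2b1, Ugt2a3 and Ugt2b36, which were tested only through a Cd151-/- array. Values beyond 2.5 either way take the end colour.

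Single mice spread widely. Cd151-/- mouse 4 had the highest value in 16 of 31 members, or 51.6%, whereas it was highest in 18.1% of all tested genes. The 16 include Sult1b1, Sult2b1, Ugt2a3 and Ugt2b36, which were tested only through a Cd151-/- array. Among the 21 members detected on all 8 arrays it was highest in 11, or 52.4%, beside 19.4% of all genes so detected. Cd151+/+ mouse 2 had the lowest value in 9 members, or 29%, beside 12.1% of all genes. The 9 include Sult1b1 and Sult2b1, which no Cd151+/+ array detected. Of the 21 members detected on all 8 arrays, that mouse was lowest in 7, beside 10.2% of all genes so detected. The median SD within a genotype was 0.56 for members and 0.38 for all tested genes. In 24 of the 31 members that SD exceeded the genotype difference, which was also so for 79.3% of all genes.

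UDP-glucuronosyltransferases had the largest median difference of the 4 classes. All 5 genes detected in both genotypes had a higher mean in Cd151-/-, with a median log2 fold change of 0.85. Of these 5, Ugt1a10, Ugt1a2 and Ugt1a6a belong to the Ugt1 locus. Their probe positions were not examined, so part of a signal may come from a related transcript. The median was 0.75 with Ugt2a3 and Ugt2b36, which were tested only through Cd151-/- mouse 4. Without that mouse 5 genes were tested, 4 were higher and 1 lower, and the median was 0.50. The median over all 7 was 0.36 without Cd151+/+ mouse 1 and 0.35 with array weights, where 6 were higher and 1 lower. Within the higher-background arrays the median of the 5 genes was 0.11, and within the lower-background arrays 1.65.

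Ugt1a6a, which glucuronidates small phenols, had signals of 4.68, 4.74, 5.38 and 6.13 in Cd151+/+ mice 1 to 4 and of 6.53, 5.56, 5.75 and 6.97 in Cd151-/- mice 1 to 4. The Cd151+/+ mouse 4 value lay above those of Cd151-/- mice 2 and 3, so the genotypes overlapped. Ugt1a6a was detected in 2 of 4 Cd151+/+ and in all 4 Cd151-/- mice. The mean was 5.23 ± 0.68 against 6.20 ± 0.66 (SD, n = 4 each), a log2 fold change of 0.97 with a standard error of 0.39. The unadjusted limma p was 0.0321, the adjusted p 0.918, and the exact two-sided permutation p 0.114, where 0.0286 is the smallest that 4 against 4 allows. A second, dimmer probe of Ugt1a6a, detected on 1 array, gave -0.05.

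Ugt1a10 is a further member of the Ugt1 locus, whose genes share their last exons, and its symbol has also served as an older name of Ugt1a7c. The signals were 10.84, 11.34, 12.19 and 12.87 in Cd151+/+ mice and 12.95, 11.81, 12.14 and 13.33 in Cd151-/- mice. Cd151-/- mouse 4 was highest and Cd151+/+ mouse 1 lowest, and Cd151+/+ mouse 4 exceeded 2 of the Cd151-/- mice. The difference of 0.75 ± 0.46 (standard error) came from the lower-background arrays, at 1.65, since the higher-background arrays gave -0.14.

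Ugt1a2 followed the array sets more than the genotypes. Its signals were 4.58, 4.72, 6.02 and 8.99 in Cd151+/+ mice and 9.0, 7.96, 5.59 and 5.15 in Cd151-/- mice. The 4 higher-background arrays held the 4 highest values in both genotypes. The mean of those arrays exceeded that of the others by 2.98, against a genotype difference of 0.85 ± 1.04 (standard error).

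Ugt3a1 and Ugt8 are relatives that use other sugars, N-acetylglucosamine and galactose, and Ugt8 makes the galactosylceramide of myelin and kidney. Ugt3a1 signals were 9.01, 10.44, 9.49 and 8.28 in Cd151+/+ mice and 10.52, 7.48, 10.24 and 12.61 in Cd151-/- mice. Ugt8 signals were 6.88, 7.83, 7.63 and 6.95 in Cd151+/+ mice and 7.02, 5.79, 7.88 and 10.31 in Cd151-/- mice. In both genes Cd151-/- mice held the highest and the lowest value of the 8, mouse 4 and mouse 2. The range over the 8 mice was 5.14 for Ugt3a1 and 4.53 for Ugt8, and the within-genotype SD of Cd151-/- was 2.11 and 1.91 beside 0.90 and 0.48 in Cd151+/+ (n = 4 each). The log2 fold changes of 0.91 ± 0.87 and 0.43 ± 0.75 (standard errors) were therefore not resolved from the spread. Without Cd151-/- mouse 4 they were 0.11 and -0.43.

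Both tested Ugt2 genes, Ugt2a3 and Ugt2b36, stayed near the lowest detectable signal. Ugt2a3 lay between 4.44 and 4.84 in Cd151+/+ mice and reached 5.50 in Cd151-/- mouse 4. Ugt2b36 lay between 4.53 and 4.89 in Cd151+/+ mice and reached 5.69 in the same mouse. In the other Cd151-/- mice both were undetected.

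**Figure D2:**
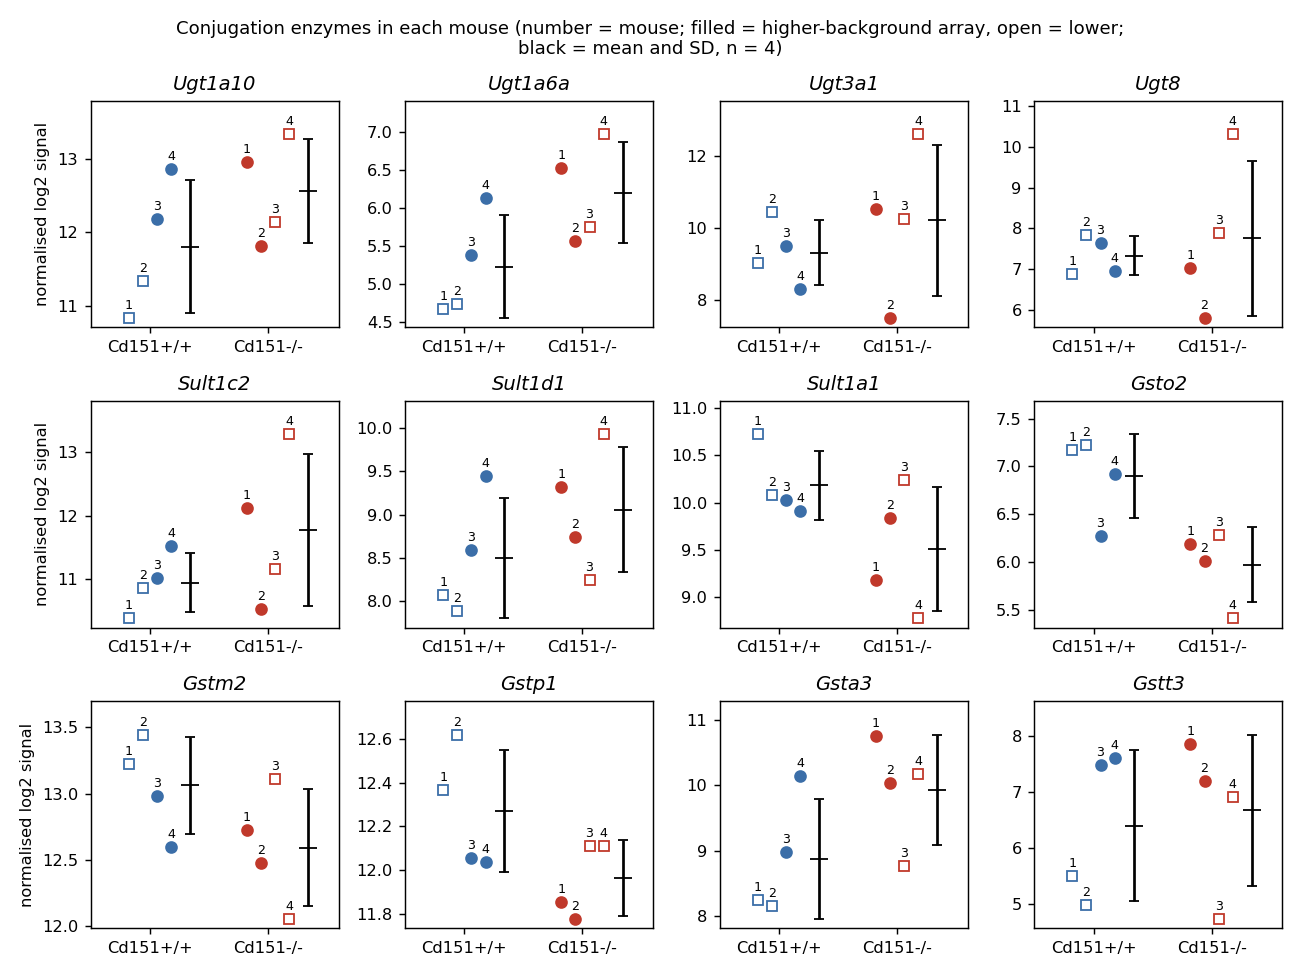
Normalised log2 signal (vertical axes, 1 scale per panel) of 12 conjugation enzyme genes in each mouse, numbered 1 to 4 within genotype, with the mean and SD of each genotype in black (n = 4). Filled points are arrays of higher background and open points arrays of lower background. No panel shows the 2 genotypes apart, Ugt3a1, Ugt8 and Sult1c2 have Cd151-/- mouse 4 far above the rest, and Gstt3 follows the array sets except in Cd151-/- mouse 4.

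Sulfotransferases were tested for 5 of 10 genes, of which Sult1b1 and Sult2b1 were detected on 1 Cd151-/- array each and on no Cd151+/+ array. Of the 3 others, 2 had a higher and 1 a lower mean in Cd151-/-, with a median of 0.56. Sult1c2 signals were 10.39, 10.86, 11.02 and 11.52 in Cd151+/+ mice and 12.12, 10.54, 11.16 and 13.27 in Cd151-/- mice. Cd151-/- mice 1 and 4 stood above all others, while mouse 2 stood among the lowest. The genotype difference was 0.83 ± 0.51 (standard error), and 0.32 without Cd151-/- mouse 4.

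Sult1d1, which sulfates dopamine and other catecholamines, had signals of 8.07, 7.88, 8.59 and 9.44 in Cd151+/+ mice and of 9.32, 8.74, 8.24 and 9.93 in Cd151-/- mice. The highest mice were Cd151-/- mouse 4, Cd151+/+ mouse 4 and Cd151-/- mouse 1, as for Ugt1a10. The genotype difference was 0.56 ± 0.42 (standard error). A dimmer second probe of Sult1d1 gave 0.12.

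Sult1a1, the main phenol sulfotransferase, ran the other way. Its signals were 10.72, 10.08, 10.03 and 9.92 in Cd151+/+ mice and 9.18, 9.84, 10.24 and 8.78 in Cd151-/- mice. Cd151-/- mouse 4 was the lowest of the 8 and mouse 3 the only Cd151-/- mouse inside the Cd151+/+ range. Sult1a1 was thus 1.6-fold lower, a log2 difference of -0.67 ± 0.33 (standard error), with an unadjusted limma p of 0.0665 and an exact permutation p of 0.171. It was -0.46 within the higher-background and -0.89 within the lower-background arrays. Sult2b1, a cholesterol sulfotransferase, lay between 4.57 and 5.33 in all 8 mice.

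Cytosolic and kappa glutathione S-transferases were tested for 17 of 19 genes, of which 12 had a higher and 5 a lower mean in Cd151-/-, with a median of 0.15. Without Cd151+/+ mouse 2 the median was -0.03, with 8 higher and 9 lower. Gsto2 was the member of lowest p. Omega-class enzymes reduce dehydroascorbate and other substrates with glutathione. Gsto2 signals were 7.18, 7.22, 6.28 and 6.92 in Cd151+/+ mice and 6.19, 6.02, 6.28 and 5.41 in Cd151-/- mice. The other 3 Cd151-/- mice lay below every Cd151+/+ mouse, and Cd151-/- mouse 3 met Cd151+/+ mouse 3 at 6.28. The mean was 6.90 ± 0.43 against 5.98 ± 0.39 (SD, n = 4 each), 1.9-fold lower in Cd151-/-.

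The log2 fold change of Gsto2 was -0.92 ± 0.28 (standard error), with an unadjusted limma p of 0.0075, an adjusted p of 0.918 and an exact permutation p of 0.0571. It was -0.49 within the higher-background arrays and -1.35 within the lower-background arrays, and a second probe of Gsto2 gave -0.50. Its paralog Gsto1 had signals of 9.23, 8.19, 9.43 and 10.33 against 10.22, 9.86, 9.33 and 9.04, a difference of 0.32 ± 0.42 (standard error).

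Gsta3, an alpha-class transferase, had the largest difference of the family. Its signals were 8.25, 8.15, 8.98 and 10.14 in Cd151+/+ mice and 10.75, 10.04, 8.76 and 10.17 in Cd151-/- mice. Cd151+/+ mouse 4 lay with the Cd151-/- mice and Cd151-/- mouse 3 with the Cd151+/+ mice. Gsta3 was thus 2.07-fold higher, a log2 difference of 1.05 ± 0.49 (standard error), with a 95% confidence interval of -0.04 to 2.14. It was 0.84 and 1.27 within the higher- and lower-background arrays, so the difference of Gsta3 had the same sign in both. With the array set as a block the limma p was 0.014 and the adjusted p 0.376.

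Gsta4, which conjugates the lipid peroxidation product 4-hydroxynonenal, had overlapping values in both genotypes. Its signals were 12.55, 11.97, 11.53 and 12.44 in Cd151+/+ mice and 12.01, 13.09, 12.25 and 11.55 in Cd151-/- mice. Its log2 fold change was 0.10 with a 95% interval of -0.66 to 0.86. Gsta2 was detected on 3 arrays and had a difference of 0.21 ± 0.49 (standard error).

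In the mu class, means were higher for 2 and lower for 3 of the 5 tested genes. Gstm2 signals were 13.22, 13.44, 12.98 and 12.60 in Cd151+/+ mice and 12.73, 12.48, 13.11 and 12.06 in Cd151-/- mice, and Cd151-/- mouse 4 was again lowest. Its 3 probes gave -0.47, -0.49 and -0.62, with unadjusted limma p-values of 0.12, 0.101 and 0.0706. Mu-class genes are close paralogs and the probe positions were not examined, so part of a signal may come from a related transcript.

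Gstm5 ran opposite to Gstm2. Its signals were 6.59, 7.01, 8.05 and 8.85 in Cd151+/+ mice and 9.0, 8.29, 7.34 and 8.73 in Cd151-/- mice, a difference of 0.72 ± 0.50 (standard error). Gstm1 signals were 9.49, 9.42, 10.24 and 9.98 against 10.09, 9.84, 9.29 and 9.72, and its interval of -0.62 to 0.53 spans 0. Both were higher on the higher-background arrays, by 1.13 for Gstm5 and 0.55 for Gstm1.

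In the pi class, Gstp1 signals were 12.37, 12.62, 12.05 and 12.04 in Cd151+/+ mice and 11.85, 11.78, 12.11 and 12.11 in Cd151-/- mice. Cd151+/+ mice 1 and 2 stood above the other 6. The difference was -0.31 ± 0.22 (standard error), and a second Gstp1 probe gave -0.06. Gstp2, its close paralog, gave 0.16 ± 0.29.

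In the theta class, Gstt2 signals were 9.49, 9.33, 10.25 and 10.58 in Cd151+/+ mice and 10.86, 9.56, 9.66 and 11.35 in Cd151-/- mice, a difference of 0.45 ± 0.44 (standard error). Gstt3 signals were 5.50, 4.97, 7.48 and 7.61 in Cd151+/+ mice and 7.85, 7.19, 4.73 and 6.90 in Cd151-/- mice. Like Ugt1a2, Gstt3 was high on the higher-background arrays, by 2.01, beside a genotype difference of 0.28 ± 0.73. Gstt1 gave 0.03 ± 0.32.

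Gstz1, which acts in tyrosine breakdown as maleylacetoacetate isomerase, had signals of 10.55, 10.74, 11.13 and 11.98 in Cd151+/+ mice and of 11.80, 11.19, 11.21 and 12.58 in Cd151-/- mice. Cd151-/- mouse 4 lay above the Cd151+/+ range and the others inside it. The difference was 0.59 ± 0.38 (standard error), with 1.25 within the lower-background and -0.06 within the higher-background arrays. Gstk1, the mitochondrial and peroxisomal kappa enzyme, gave 0.15 ± 0.28.

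Microsomal transferases are membrane proteins of a separate origin. Mgst1 signals were 10.22, 9.25, 9.46 and 10.59 in Cd151+/+ mice and 9.67, 9.34, 9.31 and 9.30 in Cd151-/- mice. The 4 Cd151-/- mice lay within the Cd151+/+ range and had a smaller SD, 0.18 beside 0.63 (n = 4 each). The difference was -0.47 ± 0.30 (standard error), and it was like in both array sets, at -0.52 and -0.43. Mgst3 had signals of 12.36, 12.16, 12.36 and 12.97 against 12.64, 12.22, 12.53 and 13.18, a difference of 0.18 ± 0.27.

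**Figure D3:**
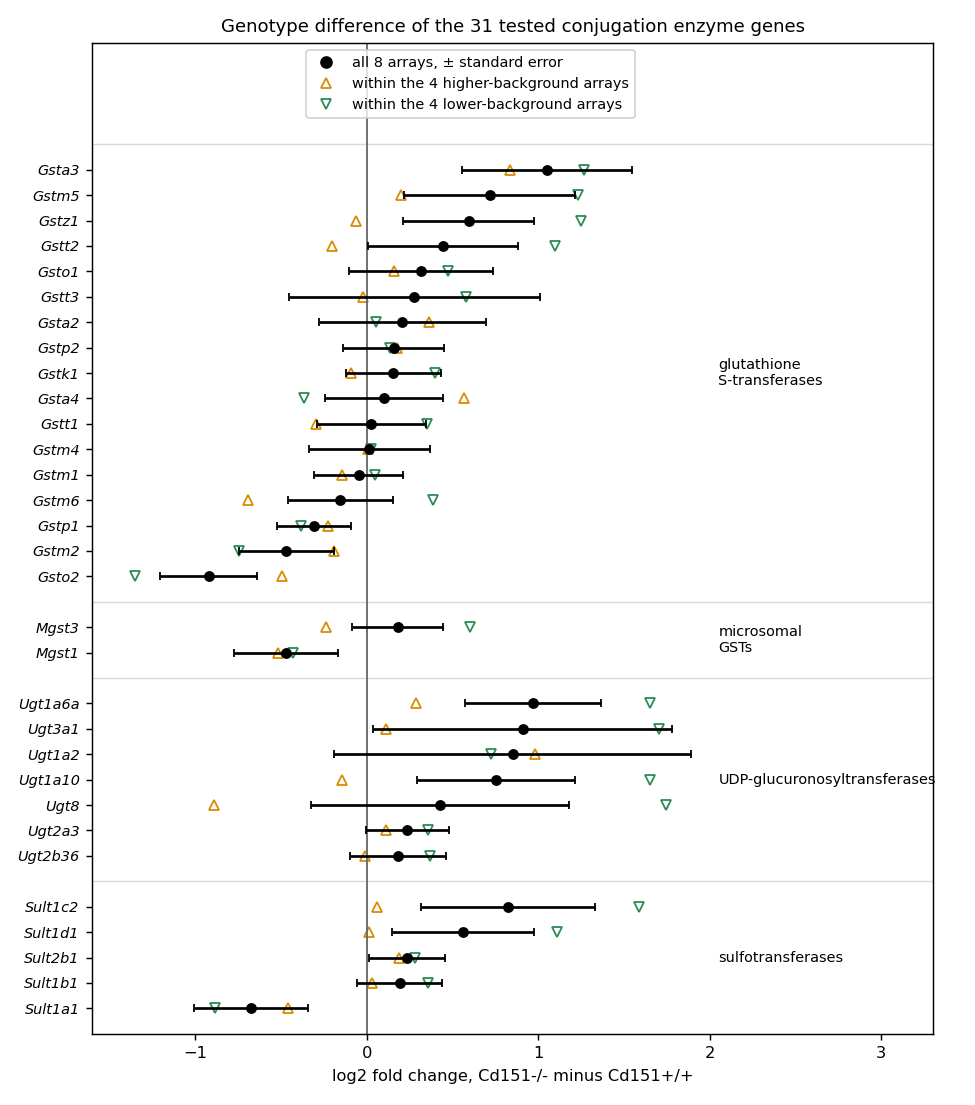
Log2 fold change (horizontal axis, Cd151-/- minus Cd151+/+) of the 31 tested conjugation enzyme genes over all 8 arrays, with its standard error, and within each background set of 4 arrays (triangles), by class. Triangles of the lower-background arrays lie to the right of the others for most UDP-glucuronosyltransferases and sulfotransferases. Gsta3, Gsto2 and Mgst1 keep their side of 0 in both sets, and so do other genes, such as Sult1a1, Ugt1a6a and Gstm2.

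Values of proximal tubule markers stand beside these, since the isolates can hold tubule. Of 19 listed markers 15 were tested, and 3 of these, Pck1, Lrp2 and Gatm, were detected on Cd151-/- arrays only. Of the other 12, 11 had a higher mean in Cd151-/-, and the median log2 fold change was 0.66, with 0.03 within the higher-background and 1.37 within the lower-background arrays. None passed adjustment, and 2 of the 15, or 13.3%, were higher at an unadjusted limma p of 0.05, beside 1.9% of all genes. These were Slc22a8, an organic anion transporter (1.45 ± 0.32, standard error), and Kap, the androgen-regulated kidney protein (1.38 ± 0.57). Slc22a8 was detected in 1 Cd151+/+ mouse and in 4 Cd151-/- mice, and its Cd151+/+ signals of 4.60 to 5.68 lay near the lowest detectable signal. The summed normalised signal of the 15 markers was 29800, 36803, 56383 and 81567 in Cd151+/+ mice and 86080, 54327, 48364 and 103612 in Cd151-/- mice. Cd151-/- mouse 4 was highest and Cd151+/+ mouse 1 lowest. These sums, the share of 15 and the medians by mouse below include Pck1, Lrp2 and Gatm, which only Cd151-/- arrays detected.

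The summed signal of the 7 UDP-glucuronosyltransferases was 2456, 4205, 5622 and 8415 in Cd151+/+ mice and 10082, 4062, 6016 and 18002 in Cd151-/- mice. That of the 5 sulfotransferases was 3278, 3148, 3482 and 4575 in Cd151+/+ mice and 5650, 2815, 3773 and 11328 in Cd151-/- mice. Both sums include genes tested only through a Cd151-/- array, namely Ugt2a3, Ugt2b36, Sult1b1 and Sult2b1. By summed signal, which the brightest probes dominate, Cd151-/- mice 4 and 1 and Cd151+/+ mouse 4 were the highest for all 4 enzyme classes and for the proximal tubule markers. By median log2 signal the same 3 mice were highest for the other classes but not for the microsomal transferases. There Cd151+/+ mouse 1 (11.29) exceeded Cd151-/- mice 4 (11.24) and 1 (11.15). For the tubule markers, Cd151+/+ mouse 3 (11.42) and Cd151-/- mouse 3 (11.40) exceeded Cd151+/+ mouse 4 (11.21) and Cd151-/- mouse 1 (10.75). The 17 cytosolic and kappa transferases summed to between 25793 and 31783 in Cd151+/+ and between 27150 and 30676 in Cd151-/- mice, so the genotypes overlapped over a narrow range. In bulk RNA of this kind, more cells of a type and more RNA per cell cannot be told apart, and the part of the tubule markers in the enzyme values was not tested.

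Markers of other cells were summed in the same way. The 8 tested podocyte markers summed to between 63622 and 69606 in Cd151+/+ mice and to 53925, 59376, 67112 and 50672 in Cd151-/- mice. Of the 8, 7 had a lower mean, and the remaining marker was detected on no Cd151+/+ array. For the loop, distal tubule and collecting duct, 7 of 11 markers had a lower mean, and Cd151-/- mouse 4 had the lowest sum, 27538. The 10 endothelial markers summed to 30607, 40310, 51184 and 26590 in Cd151-/- mice 1 to 4, beside 40835 to 51613 in Cd151+/+ mice. The genotypes thus overlapped. For mesangium and smooth muscle, 6 tested markers summed to between 5260 and 6660 in Cd151+/+ mice. They summed to 6662, 8289, 7347 and 3963 in Cd151-/- mice 1 to 4. Of these 6 markers, 2 had a higher and 4 a lower mean in Cd151-/-. The leukocyte markers, 5 tested of 9, summed to between 890 and 1471 in all mice. The 4 tested erythroid markers summed to between 38031 and 50061 in Cd151+/+ mice and to between 17856 and 37438 in Cd151-/- mice. All 4 had a lower mean in Cd151-/-, although 1 of them was detected on no Cd151+/+ array. At an unadjusted limma p of 0.05, 2 of the 4 were lower, beside 2.47% of all genes.

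**Figure D4:**
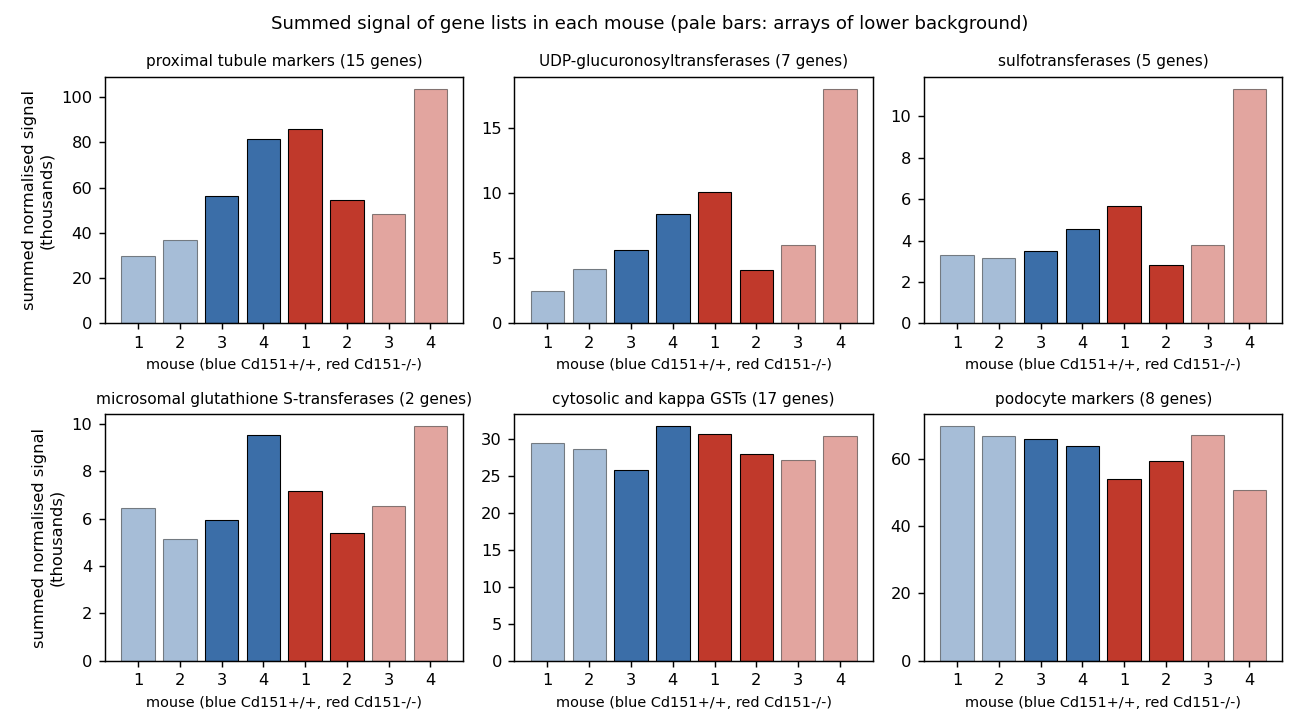
Summed normalised signal (vertical axes, from 0) of proximal tubule markers, of the 4 enzyme classes and of podocyte markers in each mouse, with 1 bar per mouse. The tallest bars of the UDP-glucuronosyltransferases, sulfotransferases and proximal tubule markers belong to Cd151-/- mouse 4, while the cytosolic and kappa transferases range less widely and the podocyte markers lowest in that mouse.

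Genes that supply and recycle glutathione were measured on the same arrays. Of 17 listed genes 12 were tested, 9 with a higher and 3 with a lower mean in Cd151-/-, with a median of 0.19, and none passed adjustment. Ggt5, listed under its older symbol Ggtla1, cleaves glutathione conjugates and leukotriene C4 and had the lowest p of the list. Its signals were 9.77, 9.69, 9.55 and 8.69 in Cd151+/+ mice and 7.99, 8.26, 9.18 and 7.32 in Cd151-/- mice. Only Cd151-/- mouse 3 lay inside the Cd151+/+ range. The difference was -1.24 ± 0.38 (standard error), with an unadjusted limma p of 0.00823 and an adjusted p of 0.918.

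Ggt1, the gamma-glutamyltransferase of the proximal tubule brush border, had signals of 7.15, 7.90, 9.27 and 9.29 in Cd151+/+ mice and of 9.50, 8.86, 8.67 and 9.69 in Cd151-/- mice. The difference was 0.78 ± 0.47 (standard error), with -0.10 within the higher-background arrays and 1.66 within the lower. Ggt5 and Ggt1 thus had differences of opposite sign. Glutathione peroxidases and other thiol enzymes, 8 tested, had a median of 0.03, with Gpx1 at 0.31 ± 0.25 and Gpx3 at 0.02 ± 0.19.

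Genes of donor supply had small differences. The 3 tested genes for UDP-glucuronic acid lay between -0.06 and 0.11, and the 7 for sulfate and PAPS had a median of 0.09. Papss1 and Papss2 make PAPS. Papss2 gave 0.58 ± 0.47 and Papss1 -0.20 ± 0.23 (standard errors). Among the 5 deconjugating enzymes, beta-glucuronidase (Gusb) gave 0.04 ± 0.19 and arylsulfatase B (Arsb) 0.68 ± 0.45.

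Export and regulation were measured too. Of the 3 tested conjugate pumps, Abcc2, the apical pump of the proximal tubule, had signals of 7.53, 7.44, 6.96 and 8.03 in Cd151+/+ mice and of 8.10, 6.93, 8.69 and 9.61 in Cd151-/- mice. The difference was 0.84 ± 0.48 (standard error), and Cd151-/- mouse 4 was highest. Abcc5 gave -0.32 ± 0.23.

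Of 14 tested NRF2 targets outside the transferases, 1 of them detected on Cd151-/- arrays only, 10 had a higher and 4 a lower mean, none had an unadjusted p of 0.05 or lower, and the median was 0.07. Nqo1, a standard NRF2 target, gave 0.35 ± 0.25 and Ephx1, the microsomal epoxide hydrolase, -0.50 ± 0.25 (standard errors). Among 8 tested transcription factors, 1 of them detected on Cd151+/+ arrays only, 2 had a higher and 6 a lower mean, with a median of -0.08. At an unadjusted limma p of 0.05 the test picked 1 of the 8 as lower in Cd151-/-, beside 2.47% of all genes, and none as higher. Hnf4a, a factor of the proximal tubule, gave 1.00 ± 0.48 (standard error), with its highest signal, 10.20, in Cd151-/- mouse 4. None of the 8 passed adjustment.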

How the data were processed

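Glomerular RNA of 4 Cd151+/+ and 4 Cd151-/- mice was amplified, biotin-labelled and read on Illumina MouseRef-8 v1.1 arrays. The authors deposited a signal intensity per probe, exported from GenomeStudio and neither background-subtracted nor normalised, and a detection p-value, the share of negative-control probes at least as bright, in steps of 1 over 798. Groups came from the sample labels, which call the mice biological replicates.

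In R 4.3.3, the deposited intensities were corrected and quantile normalised with neqc of limma 3.58.1 (offset 16, background inferred from the detection p-values) and taken to log2. Probes detected (p of 0.05 or lower) on at least 1 array, 14967 probes of 11240 genes, were fitted with lmFit and eBayes, with Benjamini-Hochberg adjustment over these probes. The study normalised by cubic spline and listed genes at an unadjusted p below 0.05 after an intensity filter. It also used SAM, which was not run here, and pathway analyses. The brightest tested probe represents a gene. The 70 relabelings of 4 against 4 gave exact two-sided permutation p-values. A probe that a whole genotype left undetected was set to the dimmest detected signal of each such array, which makes its fold a bound. The script was tested on simulated data. Depth has no counterpart on arrays, and the number of arrays limits the precision.

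In each family the 3 genes of highest mean signal and the 2 of lowest p were named, and in each other list the 2 of lowest p and the brightest, apart from a few genes that are not reported here. Members and lists were chosen with earlier results of these data known. Other settings tried were the background correction, normalisation, offset, filter, blocks, variance model, array weights, choice of probe and leaving out each mouse.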

Additional observations from a re-analysis of the deposited data

Results flagged for a closer look

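In 62 groups of 4 mice, 1 mouse stood apart from the other 3 in 3 cases, and chance alone sets apart about 1 group in 20. Mgst1 had a log2 signal of 9.67 in Cd151-/- mouse 1, while the other Cd151-/- mice lay between 9.30 and 9.34. Sult1b1 had 5.54 in Cd151-/- mouse 4, while the others lay between 4.64 and 4.71. Ugt2b36 had 5.69 in Cd151-/- mouse 4, while the others lay between 4.50 and 4.65. Sult1b1 and Ugt2b36 were detected on that array alone. The causes were not tested.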

How the results depend on the processing

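No conjugation enzyme passed adjustment under any of 19 alternatives, the lowest adjusted limma p being 0.0885, with array weights. At an unadjusted p of 0.05, the count of genes higher in Cd151-/- was 0 without normexp correction, 0 with an offset of 50, 0 with the mean of all probes of a gene, 2 with the array set as a block (Gsta3 and Ugt1a6a), where 5.21% of all genes were so picked, 2 with trended and robust variance (1.94% of all genes), and 9 with array weights, where 15.4% of all genes were so picked. With array weights the count of lower genes was 4 (Gstm2, Gsto2, Gstp1 and Sult1a1), where 16.4% of all genes were. Leaving out 1 mouse gave 0 to 6 higher and 1 to 3 lower genes. No gene was higher when Cd151+/+ mouse 1 or 2 or Cd151-/- mouse 1 or 4 was left out. Omitting Cd151+/+ mouse 4 gave 6 higher genes (3.09% of all genes), Cd151-/- mouse 2 gave 3 (3.12%), and Cd151-/- mouse 3 gave 2 (4.43%). Omitting Cd151+/+ mouse 2 gave 2 lower genes (1.43% of all genes) and Cd151-/- mouse 3 gave 3 (5%). With 75th percentile scaling Gsta3 took the place of Ugt1a6a. Gsto2 had an unadjusted p of 0.05 or lower in all 19 and Ugt1a6a in 11. The median over tested members was 0.084 to 0.35.

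Of 577 gene values under alternatives 549 kept their sign, and 20 of 31 genes kept it throughout. With array weights Gstm1 was 0.30, Gstp2 -0.25, Gstt1 -0.082 and Ugt8 -0.27, and with 75th percentile scaling Gstm4 was -0.023. Leaving out single mice gave -0.048 to 0.67 for Gsta2, -0.19 to 0.32 for Gsta4, -0.17 to 0.10 for Gstm1, -0.21 to 0.26 for Gstm4, -0.42 to 0.083 for Gstm6, -0.051 to 0.67 for Gsto1, -0.051 to 0.31 for Gstp2, -0.24 to 0.27 for Gstt1, -0.20 to 0.95 for Gstt3, -0.0017 to 0.35 for Mgst3 and -0.43 to 1.08 for Ugt8. The causes were not tested.

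Mice share numbers across genotypes. Same-numbered mice deviated from their group means with correlations of -0.58, -0.40, -0.53 and -0.0086. Each such pair was split between the higher- and the lower-background arrays, so these correlations cannot show whether the numbers pair the mice. With the replicate number as a block the counts were 0 past adjustment, 1 higher and 1 lower, and the median 0.21.

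Nothing below background was measurable, which limits the 11 undetected genes and the 4 detected on 1 array.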
